A study of Homo sapiens with 6 samples.

Results

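Protein-coding genes of MDA-MB-231 cells were classed by whether their promoters held a peak of the transcription factor E2F1, a peak of histone H3 trimethylated at lysine 27 (H3K27me3), both or neither. A gene had E2F1 when the summit of a peak from DMSO-treated cells lay within 1 kb of any of its transcription start sites (TSSs), and H3K27me3 when any base of a broad peak from control shRNA cells did. Of the 20046 protein-coding genes in GENCODE release 44, 19970 lay on the 23 chromosomes that carried peaks and were classed, while 63 on Y and 13 on the mitochondrial genome were not. 5364 genes had E2F1 only (26.9% of those classed), 4078 had H3K27me3 only (20.4%), 1334 had both (6.68%) and 9194 had neither (46%).

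The series holds 6 ChIP-seq samples of MDA-MB-231, an established triple-negative breast cancer line, with 1 library in each group. For E2F1, cells were kept in DMSO, the solvent of the inhibitor arm, for 72 h before precipitation with a Santa Cruz antibody. For H3K27me3, cells met a lentivirus with a control shRNA for 24 h and puromycin at 2 µg/ml for the next 72 h, and an Active Motif antibody was used. Both arms started from the same parental line and medium, but only the H3K27me3 arm was transduced and selected. The arms differ in antibody, treatment and peak-calling mode. The study's methods also give sonication for transcription factors and micrococcal nuclease for histone marks, although the sample labels mention sonication alone. Antibody, arm and fragmentation therefore cannot be told apart from each other, and no comparison below has a replicate or a test. Shares carry exact 95% Clopper-Pearson intervals over genes, which cover counting error only, since genes are not replicates and neighbouring genes can share a peak: 1054 E2F1 peaks and 478 H3K27me3 peaks served 2 or more genes.

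E2F1 binds DNA with a DP partner and switches on genes for DNA replication and entry into S phase once the retinoblastoma protein releases it. H3K27me3 is written by Polycomb repressive complex 2 (PRC2), whose catalytic subunit is EZH2, and is known for broad domains over silent developmental genes. CpG-rich promoters are shared ground: they hold most housekeeping and cell cycle genes as well as most Polycomb targets.

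Promoter sequences of the 4 classes are shown to let the E2F word be seen in its setting. The word searched was TTNNCGC, in which each N stands for C or G, on either strand, and its matches are in capitals. The 121 bases (hg38) are centred on the strongest E2F1 summit for CDKN2D and BUB3, on the midpoint of the most significant H3K27me3 peak for LMTK3, and run up to the canonical TSS for GOLGA8A. Each is the first gene of its class in the naming order whose window met no annotated UTR, and each is read along the strand of its gene.
CDKN2D, E2F1 only, chr19:10569211-10569331, minus strand: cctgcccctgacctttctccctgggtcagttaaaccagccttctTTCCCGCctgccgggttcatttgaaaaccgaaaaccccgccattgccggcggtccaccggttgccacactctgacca
LMTK3, H3K27me3 only, chr19:48510272-48510392, minus strand: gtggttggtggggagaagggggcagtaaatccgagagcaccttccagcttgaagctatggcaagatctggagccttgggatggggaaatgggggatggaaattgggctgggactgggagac
BUB3, both, chr10:123154006-123154126, plus strand: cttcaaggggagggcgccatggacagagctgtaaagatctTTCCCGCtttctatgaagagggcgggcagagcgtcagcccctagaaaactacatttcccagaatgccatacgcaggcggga
GOLGA8A, neither, chr15:34437809-34437929, minus strand: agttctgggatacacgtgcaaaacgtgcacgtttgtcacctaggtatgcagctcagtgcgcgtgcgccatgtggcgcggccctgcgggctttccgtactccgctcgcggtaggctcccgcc
The CDKN2D and BUB3 windows each held 1 match, whereas the LMTK3 and GOLGA8A windows held 0. GC content was 59.5% with 7 CpG dinucleotides for CDKN2D, 57.0% with 1 CpG for LMTK3, 55.4% with 6 for BUB3 and 63.6% with 14 for GOLGA8A. The LMTK3 window was annotated as intronic and the other windows as lying between genes.

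Over all genes, the word occurred within 100 bp of the canonical TSS in 12.3% of promoters (2459 of 19970). By class it occurred in 20.7% of E2F1 only promoters (95% interval 19.6 to 21.8), 18.6% of both (16.5 to 20.8), 8.31% of H3K27me3 only (7.48 to 9.20) and 8.28% of neither (7.72 to 8.86). The classes with E2F1 thus lay above the share of all promoters and the classes without it lay below, whether or not H3K27me3 was present. Every form of the word contains a CpG, and promoters with E2F1 were richer in CpG, as given below. The word was not compared at matched CpG content, so the part of base composition in these shares was not tested. Within 100 bp of any E2F1 summit placed at the gene, the word occurred at 39.5% of E2F1 only genes (38.2 to 40.8). It did so at 35.1% of genes with both (32.5 to 37.7).

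There were 15703 E2F1 peaks, of 436 bp and 4.57-fold enrichment over background at the median. The 123957 broad H3K27me3 peaks had medians of 722 bp and 3.17-fold, and they covered 143 Mb against 8.41 Mb for E2F1. Their −log10 q had a median of 1.68 and a minimum of 1.01. At 49.6% of H3K27me3 only genes and 36.1% of genes with both, no H3K27me3 peak at the promoter reached −log10 q of 2. Of the E2F1 peaks, 39.1% lay at a promoter of a classed gene, and of the H3K27me3 peaks 6.58% did. The lists give no read totals, so the depth behind a missing peak is unknown and a gene without a peak is a gene without a call. Among genes with E2F1, which by the rule have a summit within 1 kb, the nearest summit lay a median of 98 bp from a TSS. A summit lay within 250 bp at 78.2% of these genes. At the edge of the rule the farthest summit inside was 996 bp away and the nearest outside 1002 bp, with 43 genes in the last 100 bp inside and 31 in the first 100 bp outside.

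To ask whether the mark was found at E2F1-bound promoters as often as elsewhere, the H3K27me3 share was compared between genes with and without E2F1. E2F1 was called at 33.5% of all genes and H3K27me3 at 27.1%. H3K27me3 was present at 1334 of 6698 genes with E2F1 (19.9%, 19.0 to 20.9) and at 4078 of 13272 genes without (30.7%, 29.9 to 31.5), a difference of −10.8 percentage points (−12.1 to −9.57). The odds ratio was 0.561, and 1815 genes would have had both if the calls had fallen independently of each other, compared with the 1334 counted. The difference kept its sign within classes of promoter GC (−11.8 points, −13.1 to −10.4) and within classes of TSS number (−11.8 points).

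That difference depended on which H3K27me3 peaks were counted. It was −2.75 points with peaks of −log10 q of at least 2, −6.81 points when the midpoint of the peak had to lie within 1 kb, and +3.02 points with peaks of −log10 q of at least 5, whereas it was −14.0 points with peaks of at least 1000 bp. The share of genes with both was 4.27%, 6.27%, 1.55% and 1.38% under those 4 settings. The lower share at genes with E2F1 was therefore a feature of the whole list and of its broad peaks, and not of its most significant peaks.

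Promoters with E2F1 were richer in GC and CpG whether or not they carried the mark. Over the 500 bp on either side of the canonical TSS, the median GC content was 64.8% in E2F1 only (quartiles 59.5 and 69.7), 65.5% in both (59.7 and 70.6), 59.5% in H3K27me3 only (50.5 and 67.1) and 58.8% in neither (51.0 and 65.1), against 61.3% over all genes. The medians of both and E2F1 only differed by 0.699 percentage points (95% interval −0.0159 to 1.41), much less than the spread between the quartiles of either class. The ratio of observed to expected CpG had a median of 0.814 in E2F1 only, 0.824 in both, 0.604 in H3K27me3 only and 0.644 in neither. Promoters with at least 50% GC and a ratio of at least 0.6 were taken as CpG-rich. They made up 92.0% of E2F1 only (91.3 to 92.8), 89.4% of both (87.6 to 91.0), 49.3% of H3K27me3 only (47.7 to 50.8) and 52.3% of neither (51.3 to 53.4).

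The share of genes with E2F1 climbed with promoter GC, from 5.07% of genes under 40% GC to 48.9% of genes at 70% or more. The share with H3K27me3 did not follow it. Among genes without E2F1 it was 22.2% under 40% GC, 36.6% from 45 to 50%, 27.2% from 60 to 65% and 38.8% at 70% or more. Among genes with E2F1 it was 23.6% under 40% GC, where only 55 genes were counted, 17.8% from 50 to 55% and 22.7% at 70% or more. Genes with E2F1 lay below those without in 7 of 8 GC classes, and the intervals did not overlap in any class from 50% upwards. Genes with more TSSs have more chances to meet a peak. The median number was 7 in E2F1 only, 8 in both, 5 in H3K27me3 only and 4 in neither, and genes with a lone TSS made up 6.15%, 4.57%, 16.3% and 22.5% of these classes.

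**Figure D1:**
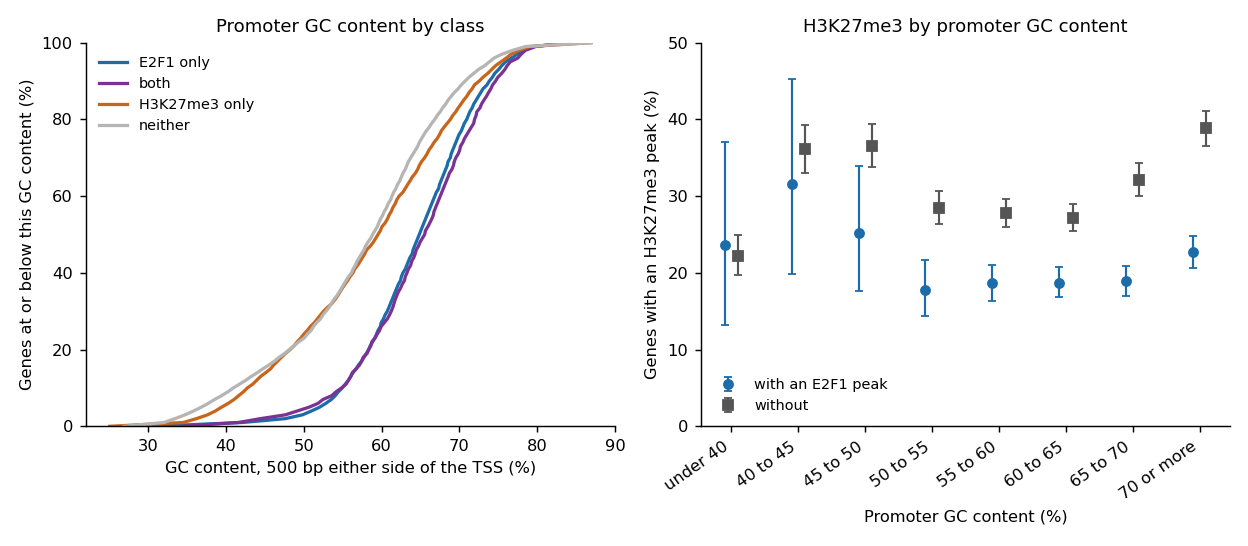
The left panel plots, for each class, the percentage of genes (vertical axis) at or below a promoter GC content (horizontal axis, %), and the right panel plots the percentage of genes with an H3K27me3 peak in each GC class for genes with E2F1 (circles) and without (squares), with bars for exact 95% intervals. The E2F1 only and both curves run close together with medians of 64.8% and 65.5%, and at 70% GC or more the mark was at 22.7% of genes with E2F1 and 38.8% of genes without.

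The genes of highest fold in the E2F1 only class had varied functions. CDKN2D, an inhibitor of CDK4 and CDK6, had the highest fold of all genes in the class, 61.1, with its summit at −212 bp from the nearest TSS (negative values are upstream) on chromosome 19. TMEM18, a nuclear membrane protein gene, followed with 52.8. ALDH6A1 and LIN52, a divergent pair on chromosome 14 of which the latter encodes a subunit of the MuvB core of DREAM, shared a peak of 51.4-fold. CSTF3, an mRNA cleavage factor gene, had 51.0, FAM111B 49, and HMGN2, a nucleosome-binding protein gene, 45.2. MDC1, the mediator of the DNA damage checkpoint, and the β-tubulin gene TUBB shared a peak of 46.6-fold, and CDCA4 had 43.5. The E2F word lay within 100 bp of the summit at every one of these genes. All of them also had a peak in the GSK126 list, as did 98.3% of the class and 51.5% of all genes.

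Lists of genes with known functions placed replication and repair almost wholly under E2F1. In the list of DNA replication and licensing, 43 of 45 genes had E2F1 (95.6%, 84.8 to 99.5, compared with 33.5% of all genes), with a median fold of 18.8 among them. 36 of these were E2F1 only and 7 had both, and ORC2 and ORC4, subunits of the origin recognition complex, had neither. PCNA, the sliding clamp, had 42.4-fold, MCM3, of the replicative helicase, 40.3, and CDC7, the kinase that fires origins, 37.6. DNA repair and checkpoint genes had E2F1 at 29 of 30 (96.7%), with the exonuclease gene EXO1 at 41.8-fold, FANCI at 33.6 and CHEK1 at 22.4. Only PMS2, of mismatch repair, had neither. Among deoxynucleotide synthesis genes 10 of 12 had E2F1, with TYMS at 39.5-fold and RRM2, the regulated subunit of ribonucleotide reductase, at 32.5, both E2F1 only.

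Of the G1/S cyclins, CDKs and E2F partners, 19 of 23 had E2F1 (82.6%, 61.2 to 95.05, compared with 33.5% of all genes). E2F1 occupied its own promoter with 20.5-fold and those of E2F8 (31.7), E2F3 (31.3), E2F7 (21.9) and its dimer partner TFDP1 (28.4), all E2F1 only. E2F5 and CDK6 had neither mark. CCND2, a cyclin gene, and RBL2, a pocket protein gene, had H3K27me3 only, with peaks of 876 bp and 622 bp. Among mitosis and spindle genes 25 of 30 had E2F1 (83.3%, 65.3 to 94.4), 19 of them without H3K27me3. SPC24, of the kinetochore, had 33.3-fold and CDK1 28.3, whereas CCNB1, cyclin B1, had 6.07 and PLK1 7.93. CDC20, the activator of the anaphase-promoting complex, had neither peak in these libraries. It had an E2F1 peak in the GSK126 list, as did 31.4% of genes with neither and 51.5% of all genes.

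Growth and energy genes were mixed. E2F1 was at 53 of 84 cytosolic ribosomal protein genes (63.1%) at a median fold of 5.33, at 32 of 78 mitochondrial ribosomal protein genes (41.0%), at 23 of 30 spliceosome core genes (76.7%), at 8 of 20 cytosolic aminoacyl-tRNA synthetase genes (40%), at 14 of 39 proteasome genes (35.9%) and at 24 of 84 nuclear genes of oxidative phosphorylation (28.6%). Only the cytosolic ribosomal (51.9 to 73.4) and spliceosome (57.7 to 90.1) intervals among these lay above the 33.5% of all genes, and the other 4 took it in. Replication-dependent histone genes, which are transcribed in S phase, had E2F1 at 20 of 69 (29.0%, 18.7 to 41.2), also near the share of all genes, and H3K27me3 at 4. Genes for the same histone are alike in coding sequence, and how well reads were placed among such copies was not tested. Of 20 housekeeping genes, 13 had E2F1 only, 6 had both and PGK1 had neither.

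**Figure D2:**
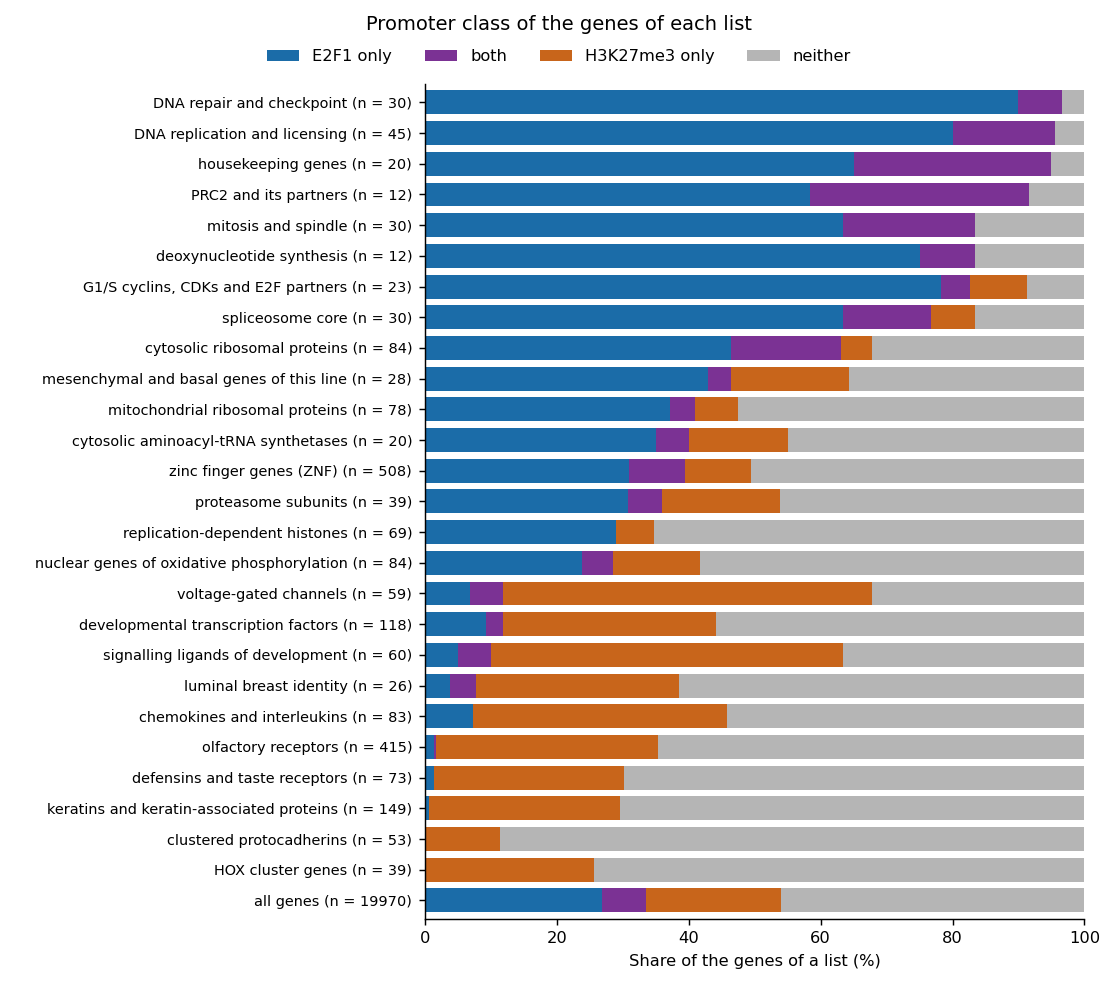
Each bar divides the genes of a list into the 4 promoter classes (horizontal axis, % of the genes of the list, with the number of genes beside its name), ordered by the share with E2F1, and the lowest bar shows all 19970 genes. Cell cycle, replication and repair lists are nearly filled by the classes with E2F1, whereas 33 of 59 channel and 32 of 60 ligand genes had H3K27me3 only and 19 and 22 had neither.

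Among the lists, those of channels and ligands had the highest shares of H3K27me3. Voltage-gated channel genes had the mark at 36 of 59 (61.0%, 47.4 to 73.5, compared with 27.1% of all genes), 33 of them without E2F1, under peaks of a median 2730 bp. KCNQ3, a potassium channel gene of neurons, lay under 7386 bp. Signalling ligands of development had it at 35 of 60 (58.3%, 44.9 to 70.9), among them WNT1 (7648 bp), FGF23 (5517 bp), WNT5A (5163 bp) and BMP2 (2925 bp). Developmental transcription factors had it at 41 of 118 (34.7%, 26.2 to 44.1), an interval that took in the share of all genes near its lower end. NKX2-1, of lung and thyroid, lay under the widest peak of that list, 12359 bp, and LHX2 under 9314 bp. Fold enrichment at these broad peaks was low, 4.35 at NKX2-1, 3.52 at LHX2 and 3.28 at KCNQ3.

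Classical Polycomb targets were covered only in part. Of 39 HOX cluster genes, 10 had H3K27me3 (25.6%, 13.0 to 42.1), 0 had E2F1 (interval up to 9.03%) and 29 had neither. HOXC4 had 6285 bp and HOXC13 2919 bp, but HOXA9 had 519 bp at 2.75-fold and −log10 q of 1.31. The HOX share did not exceed the 27.1% of all genes, so at these defining targets the list marked no more promoters than elsewhere. Clustered protocadherins had the mark at 6 of 53, chemokines and interleukins at 32 of 83 (38.6%), olfactory receptors at 141 of 415 (34.0%), defensins and taste receptors at 21 of 73 and keratins with their associated proteins at 43 of 149. E2F1 was at 0 of the protocadherins (interval up to 6.72%), 6 of the chemokines and interleukins (7.23%) and 7 of the olfactory receptors (1.69%). These shares compare with 33.5% of all genes. Olfactory receptor promoters were poor in GC, with a median of 39.7%, which compares with 66.5% for the channel genes.

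Genes of breast cell identity were found in all 4 classes. Among 26 luminal genes, 9 had H3K27me3 (34.6%, 17.2 to 55.7, an interval that took in the 27.1% of all genes) and 2 had E2F1 (7.69%, 0.946 to 25.1, compared with 33.5%). The mark lay over ESR1, the estrogen receptor (2758 bp), PGR, the progesterone receptor (1715 bp), FOXA1 (3174 bp), GRHL2 (1563 bp) and ELF3 (4187 bp), none of them with E2F1. GATA3, EPCAM and 14 others had neither. Among 28 mesenchymal and basal genes, 13 had E2F1 (46.4%, 27.5 to 66.1) and 6 had H3K27me3 (21.4%, 8.30 to 41.0), intervals that took in the shares of all genes. VIM, the intermediate filament of mesenchymal cells, had E2F1 at 19.7-fold, CAV1 at 13.9, CD44 at 7.37 and AXL at 6.34, all E2F1 only, whereas the basal keratins KRT5, KRT14 and KRT17 had H3K27me3 only.

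By −log10 q rather than width, other genes led the H3K27me3 only class. LMTK3, a membrane kinase gene, had the most significant peak, with −log10 q of 184.8 at 31.1-fold over 1291 bp. LRRC3C and ORMDL3, the latter a regulator of sphingolipid synthesis, shared 891 bp at 18.4-fold, and CHCHD6, of mitochondrial cristae, had 627 bp at 16.9-fold. CCDC124 had 16.1-fold, PDCD10 and SERPINI1 shared a peak of 12.1-fold, SENP3-EIF4A1 had 11.7, and BAX, the apoptosis effector, 10.8. These peaks were 372 to 1291 bp wide. LMTK3, LRRC3C, ORMDL3, CCDC124 and BAX had an E2F1 peak in the GSK126 list, as did 20.9% of the class and 51.5% of all genes.

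Genes with both peaks, 6.68% of all genes, included 7 of 45 replication and 6 of 30 mitosis genes. They also included 2 of 30 repair genes, at the share of all genes, and 1 of 23 G1/S genes (4.35%, RBL1). The replication and mitosis lists consist mostly of E2F1 genes, 43 of 45 and 25 of 30, which raises their share with both. H3K27me3 was at 15.6% (6.49 to 29.5) and 20% (7.71 to 38.6) of these 2 lists. Both intervals took in the 19.9% of genes with E2F1 and the 27.1% of all genes. The 7 replication genes were PRIM1, of the primase (E2F1 fold 23.4, H3K27me3 fold 6.21 over 263 bp), FEN1, the flap nuclease (22.7 and 6.69 over 298 bp), GINS3, RFC1, ORC6, CDC45 and POLE3. The 6 mitosis genes were SPC25, BUB3, BIRC5, NDC80, BUB1B and ESPL1, and the 2 repair genes XRCC2 and CHEK2. At GINS3 and SPC25 the nearest H3K27me3 base lay 22816 bp and 20914 bp from the E2F1 summit, at a different TSS. Of PRC2 and its partners, 4 of 12 had both: EZH2 had an E2F1 fold of 48.7 beside a 289 bp H3K27me3 peak of 3.51-fold, EED had 19.3 beside 4.62-fold over 184 bp, and MTF2 and JARID2 had both as well. SUZ12 and 6 other partners had E2F1 only and AEBP2 neither. At RRM1, the large subunit of ribonucleotide reductase, 17.6-fold E2F1 stood beside a 174 bp H3K27me3 peak of 5.37-fold.

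By the sum of the ranks of both folds, MAGOHB, an exon junction complex gene on chromosome 12, came first with 37.2-fold E2F1 and 9.23-fold H3K27me3 over 282 bp. KIAA1143 and KIF15, a mitotic kinesin gene, shared both peaks (27.1 and 7.67 over 345 bp). EXOSC9, of the RNA exosome, had 34.6 and 7.38, BUB3, of the spindle checkpoint, 18.7 and 9.59, ZNF367 24.6 and 7.01, EMC3, of the ER membrane complex, 21.4 and 7.23, TMEM11 15.3 and 10.1, and ZNF615 16.2 and 9.46. The H3K27me3 peaks at these genes were 282 to 487 bp wide. The summit of E2F1 lay inside that peak at all of them except ZNF367, where the gap was 835 bp.

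The class with both, 6.68% of all genes, held 3 of 118 developmental transcription factors, 3 of 60 ligands, 3 of 59 channels and 0 of 39 HOX genes. The ligand and channel counts were near the share of all genes, and all 4 counts are small. Examples are KCNS3 with 8166 bp beside an E2F1 fold of 9.83, WNT3 with 2841 bp beside 5.32, and OLIG1 with 2505 bp beside 3.46. Housekeeping genes, which are transcribed in every cell, contributed 6 of 20, among them HPRT1, GUSB, ENO1, TBP and ACTB, the last with 4.71-fold E2F1 and 3.36-fold H3K27me3 over 323 bp. Another 14 came from the 84 cytosolic ribosomal protein genes, with RPL12 at 5.88-fold and RPLP2 at 6.70-fold H3K27me3. Whether these short peaks at active promoters carry the modification was not tested.

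**Figure D3:**
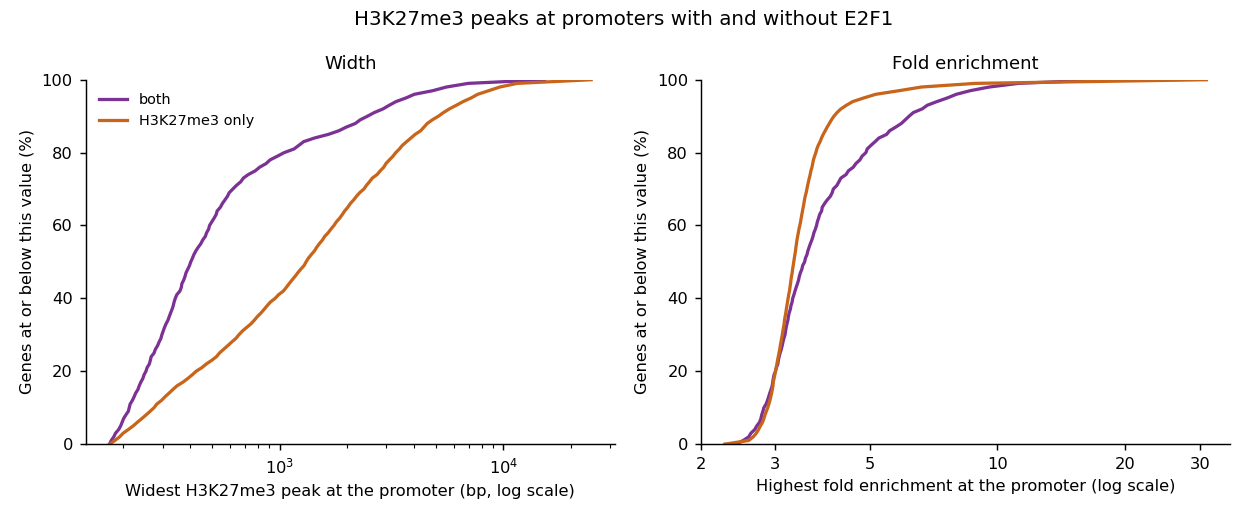
Percentage of genes (vertical axes) at or below a given width of the widest H3K27me3 peak at the promoter (left, bp, log scale) or a given highest fold enrichment (right, log scale), for genes with both peaks and with H3K27me3 only. Widths had medians of 401 bp and 1314 bp, and the upper quartile of fold was 4.46 with both and 3.64 with H3K27me3 only.

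The H3K27me3 peaks called at promoters were narrower at the median where E2F1 was also called. Widths were not compared at matched promoter CpG content. The widest peak at the promoter had a median of 401 bp in the class with both (quartiles 275 and 779) and 1314 bp in H3K27me3 only (539 and 2819). Peaks of at least 1000 bp occurred at 276 genes with both (20.7% of that class) and at 2400 with H3K27me3 only (58.9%). The highest fold had a median of 3.51 with both and 3.31 with H3K27me3 only, and the upper quartiles were further apart, 4.46 and 3.64. Peaks with −log10 q of at least 5 occurred at 309 genes with both (23.2% of that class) and at 211 with H3K27me3 only (5.17%).

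Read the other way, 24.6% of H3K27me3 genes also had E2F1 (23.5 to 25.8). That share was 44.8% where the widest peak was under 300 bp, 48.2% from 300 to 500 bp, 24.7% from 500 to 1000 bp and 9.91% from 1000 to 2000 bp, and it stayed at 11.9% and 7.38% in the 2 wider bins. It was 19.2% where −log10 q was below 2, 36.9% from 3 to 5, 61.2% from 5 to 10 and 57.5% at 10 or more. E2F1 was thus more frequent than over all H3K27me3 genes where the widest peak was under 500 bp, and less frequent at 1000 bp or more. It was also more frequent where the highest −log10 q was 3 or more. Width and −log10 q were binned separately and may come from different peaks of a gene. The strength of E2F1 did not order the classes in this way. Its median fold was 6.03 in E2F1 only and 6.04 in both, and the share of E2F1 genes with the mark was 22.8% both in the 670 genes of lowest and in the 670 of highest E2F1 fold, with 16.3% to 21.97% in the bins between.

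**Figure D4:**
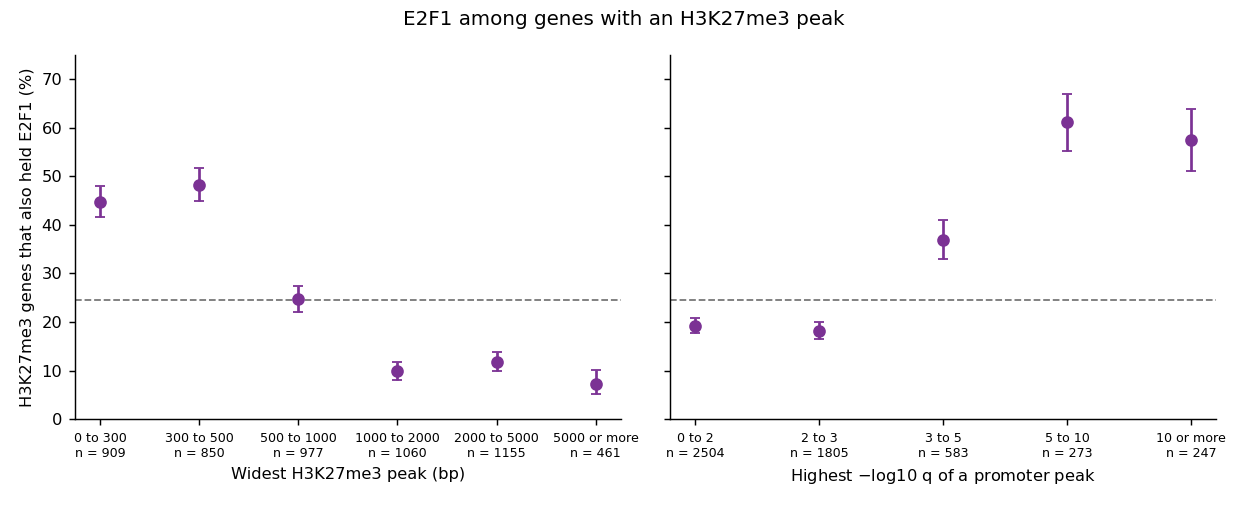
Percentage of H3K27me3 genes that also had E2F1 (vertical axis) by the width of the widest promoter peak (left, bp) and by the highest −log10 q (right), with exact 95% intervals, the number of genes under each bin and a dashed line at the 24.6% of all H3K27me3 genes. The share was 44.8% and 48.2% in the 2 narrowest bins and 61.2% for −log10 q from 5 to 10.

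Peaks of 1 gene need not lie on the same DNA. Among the 1334 genes with both, the summit of E2F1 lay inside an H3K27me3 peak at 575 (43.1%, 40.4 to 45.8), and the peaks overlapped by at least 1 bp at 960 (72.0%, 69.5 to 74.4). At 1109 genes (83.1%) some TSS was within reach of both peaks, and at 225 (16.9%) the peaks were at different TSSs only. The gap from summit to the nearest H3K27me3 base had a median of 38.5 bp and an upper quartile of 503 bp, and it was over 10 kb at 156 genes (11.7%).

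Around the canonical TSS the classes differed in how far the called H3K27me3 peaks reached. In the class with both, 46.1% of genes had an H3K27me3 peak over the TSS itself, 14.1% at −500 bp, 11.8% at +500 bp and 3.07% at +5 kb. With H3K27me3 only, 41.1% had it over the TSS, 31.8% at −500 bp, 32.1% at +500 bp and still 19.2% at +5 kb. E2F1 peaks covered the TSS of 68.9% of E2F1 only genes and 63.1% of genes with both, and 0.224% and 0.375% of them at +5 kb. In the class with both, coverage by the mark thus fell steeply within 500 bp of the TSS, as coverage by E2F1 did, whereas it fell slowly over kilobases in H3K27me3 only. In E2F1 only and neither, H3K27me3 is absent within 1 kb by the rule.

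**Figure D5:**
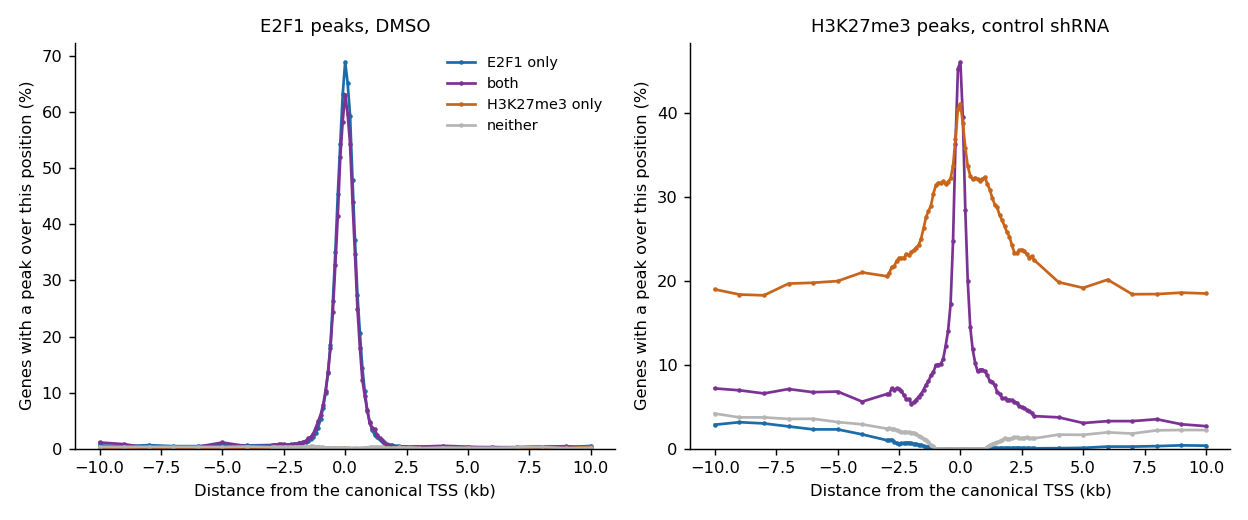
Percentage of genes of each class with a peak over a position (vertical axes) against distance from the canonical TSS (horizontal axes, kb, negative upstream), for E2F1 peaks of DMSO cells (left) and H3K27me3 peaks of control shRNA cells (right), with a point at each position computed. H3K27me3 stood over the TSS of 46.1% of genes with both and 41.1% with H3K27me3 only, and at +5 kb over 3.07% and 19.2%.

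Genes with neither peak were the largest class and the least uniform. The highest CpG ratios in it belonged to GOLGA8A (1.33), BLOC1S4 (1.14), SKI (1.12), RBMXL2 (1.11), EIF5A (1.11), NKX6-2 (1.11), NFIX (1.10) and KCNA7 (1.10). This set joined EIF5A, a translation factor of all cells, with NKX6-2 and KCNA7, which serve in neural tissue and muscle. BLOC1S4, SKI, EIF5A and NFIX had an E2F1 peak in the GSK126 list and an H3K27me3 peak in the shE2F1 list, whereas the other 4 had neither there. The GSK126 list called E2F1 at 51.5% of all genes and 31.4% of the class. The shE2F1 list called H3K27me3 at 51.2% and 25.2%. In all, 4812 genes of the class were CpG-rich, and high CpG content was therefore not enough for a call in either list.

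The classes were also read against the other 3 peak lists, which were made from other libraries of the same line. E2F1 in untreated cells was called at 5.85% of all genes: 17.1% of E2F1 only, 16.6% of both, 0.0981% of H3K27me3 only and 0.261% of neither. E2F1 after 1 µM GSK126, an EZH2 inhibitor, was called at 51.5%: 98.3%, 94.9%, 20.9% and 31.4% in the same order. Most genes with E2F1 in DMSO cells, with or without the mark, thus had it in the GSK126 library too, but most had no call in the untreated library. The untreated list held 1056 peaks, compared with 15703 for DMSO and 14276 for GSK126. The part of list size in this was not tested. H3K27me3 in shE2F1 cells was called at 51.2%: 53.8% of E2F1 only, 97.0% of both, 91.5% of H3K27me3 only and 25.2% of neither.

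The sign of the relation between E2F1 and H3K27me3 was not the same with that last list. Genes with DMSO E2F1 had shE2F1 H3K27me3 at 62.4% and genes without at 45.5%, a difference of +16.9 points (15.5 to 18.3), or +11.3 within GC classes, where control shRNA H3K27me3 gave −10.8 and −11.8. Both values use the same E2F1 library, and each rests on 1 H3K27me3 library. With the control shRNA list, untreated E2F1 gave −8.32 points (−10.7 to −5.97) and GSK126 E2F1 −13.3 points (−14.6 to −12.1). The shE2F1 list held 135683 peaks over 179 Mb, more than the 123957 over 143 Mb of control shRNA, and the part of this in the change of sign was not tested.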

How the data were processed

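Peak lists of 2 libraries were crossed, E2F1 in DMSO cells and H3K27me3 in control shRNA cells. Per the study's methods and the submitters' processing notes, the authors checked reads with FastQC 0.11.5, trimmed them with cutadapt 4.5, filtered them with Picard and SAMtools, aligned them to GRCh38 with Bowtie2 2.5.2 and called peaks per library with MACS2 2.2.9.1 (q of 0.01, broad cutoff of 0.1 for histone marks). The control behind each call is not given in the sources used here. The deposited lists give a fold enrichment, a ratio of signal to background (taken at a narrow summit, averaged over a broad peak), −log10 of the p-value and of the q-value, a score that was not used, and the offset of the summit. Thresholds on −log10 q and a broad call that averages over a region decide which genes count as marked, and read depth was not recovered here.

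Genes and TSSs were those of GENCODE release 44 on hg38, a later annotation of the build the authors used. All peaks lay within its chromosome ends. Analysis used Python 3.11.15, numpy 2.4.6, pandas 2.3.3 and scipy 1.17.1, with figures from matplotlib 3.10.9, and the code for placing peaks, classing genes and stratified differences was checked on simulated data. For each gene the E2F1 peak of highest fold, and the highest fold, highest −log10 q and widest H3K27me3 peak, were taken. GC content and the CpG ratio were computed over 500 bp on either side of the Ensembl canonical TSS. Differences within classes were averaged with the number of E2F1 genes as weight, over GC bins of 5 percentage points or TSS numbers. Differences of shares carry a normal 95% interval. No test was run, since every group has 1 library.

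Genes named were the 8 with the highest E2F1 fold (E2F1 only), the highest −log10 q (H3K27me3 only), the lowest sum of fold ranks (both) and the highest CpG ratio (neither), genes on a shared peak counting once. Up to 4 genes came from each of 26 lists of known functions, plus genes fixed by name. Some genes that met these rules are not reported here. Further members of the replication, repair, G1/S, mitosis, PRC2, ligand, luminal, mesenchymal and housekeeping lists were added after their values were seen. The members and lists were chosen with earlier results of these data known. Alternatives were a −log10 q minimum, peaks placed by any base or by midpoint, promoters of 500 bp, canonical TSSs only and other GC windows. The input sample gave no values used here, and 76 genes on Y and the mitochondrial genome were left out.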

Additional observations from a re-analysis of the deposited data

How the results depend on the processing

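The share of genes with both peaks, 6.68% as reported, was 5.56% with E2F1 peaks of −log10 q of at least 5, 4.27% with H3K27me3 peaks of −log10 q of at least 2, 6.27% by summit or midpoint, 5.78% with promoters of 500 bp and 4.91% with canonical TSSs only. With H3K27me3 peaks of −log10 q of at least 2, H3K27me3 only fell from 20.4% to 10.3% of genes. Under that setting neither rose from 46% to 56.2%. The difference in H3K27me3 between genes with and without E2F1, −10.8 points, was −2.75 with −log10 q of at least 2, −6.81 by midpoint, −8.13 with 500 bp and −7.89 with canonical TSSs. Within GC classes, −11.8 points as reported, it was −4.03, −7.82, −8.75 and −8.95 in the same order. Stricter H3K27me3 settings chosen after seeing the data gave 1.55% of genes with both for −log10 q of at least 5, with differences of 3.02 and 2.60 points (the second within GC classes), a change of sign, and 1.38%, −14.0 and −14.5 points for peaks of at least 1000 bp. The cause was not tested. The share of summits inside an H3K27me3 peak, 43.1%, was 50.3% with −log10 q of at least 2, 47.3% with 500 bp and 53.2% with canonical TSSs. The median GC of both minus E2F1 only stayed between 0.0999 and 1.30 points in all 8 alternatives. Of 58 alternative values, 22 moved by less than the counting interval. Each group has 1 library, so no library could be left out, and no paired analysis was possible because the groups share no replicates.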

Other observations

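Families of genes with a shared symbol root gave a further view of the classes (154 roots with 15 or more genes, 7284 genes). E2F1 only, 26.9% of all genes, took its highest shares from CEP genes of the centrosome (26 of 38, on 18 chromosomes), RAD genes, many of them of DNA repair (13 of 20), EEF (9 of 15), the phosphatase genes PTPN (10 of 17) and NUP genes of the nuclear pore (13 of 23). In the class with both, 6.68% of all genes, the highest shares were those of AKAP genes, which anchor protein kinase A (5 of 15), and NUP genes (7 of 23). H3K27me3 only, 20.4% of all genes, took its highest shares from the kallikrein genes KLK (13 of 15), NLRP (12 of 15), the root MS (12 of 16), WNT (12 of 19) and the cytochrome P450 genes CYP (35 of 57). KLK genes are neighbours, so that they do not count as separate regions, and the MS genes also lay on 1 chromosome. The class with neither, 46% of all genes, held among others 20 of 22 PRAMEF, 76 of 94 KRTAP and 19 of 24 claudin (CLDN) genes. PRAMEF genes lay on 1 chromosome and KRTAP genes on 3, so that these may not count as separate regions either. Zinc finger genes of the ZNF root, which are abundant on chromosome 19, split into 157 E2F1 only, 43 both, 51 H3K27me3 only and 257 neither of 508, with H3K27me3 at 18.5%, compared with 27.1% of all genes.

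The classes were uneven between chromosomes. E2F1 only ranged from 15.8% of genes on X to 34.96% on 18, H3K27me3 only from 15.8% on 8 to 28.6% on 20, and both from 2.27% on 21 to 11.2% on 20. Neither ranged from 36.4% on 14 to 62.7% on X. Chromosome copy number in this line was not analysed here.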
